A study of Mus musculus with 8 samples.

Results

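The microvillus and villin family genes described here are 10 genes whose products build the brush border, namely Vil1, Vill, Ezr, Espn, Myo1a, Cdhr2, Cdhr5, Ush1c, Eps8 and Pls1. They were chosen by symbol, and all 10 were found among the 13420 genes of the read count table. The cells came from mouse small intestinal organoids, which are epithelial cultures grown in a basement membrane gel in medium with EGF, Noggin and R-spondin1. WT cells carried the mTmG reporter on a C57BL/6 background, were derived from mice of both sexes and express membrane-bound tdTomato. Cancer cells expressed Dendra2 and carried, among other alleles, Villin-CreERT2, Apc fl/fl and Trp53 fl/R172H (spelled Tr53 in the labels), with the strain given as C57BL/6 (F6). They were transformed organoids sampled soon after tamoxifen, from male mice according to the methods. The study compared cells grown pure with cells grown mixed, at 2 parts WT to 1 part cancer, and sorted live WT and cancer cells by their colors on day 3. Each of the resulting 4 groups has 2 libraries, named by the codes in their labels: A01 and A05 are pure WT, A02 and A06 mixed WT, A03 and A07 pure cancer, and A04 and A08 mixed cancer libraries. Recombination in the cancer organoids was driven by the promoter of villin, itself one of the genes described, and a single line stood for cancer. Genotype, line, donor sex and the colors used for sorting therefore cannot be told apart in any comparison of cancer with WT cells. It is not stated whether the libraries of a group came from separate cultures, so the p-values may cover only technical spread.

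The apical face of an enterocyte is covered by microvilli, which together form the brush border and carry the enzymes and transporters of digestion. Each microvillus is a membrane finger around a core of parallel actin filaments, which are bundled by villin, espin and plastin 1 and capped and extended at the tip by Eps8. Ezrin and the motor myosin 1a fasten the membrane to this core along the shaft. At the tips, the protocadherins Cdhr2 and Cdhr5 reach across to neighboring microvilli, and harmonin, encoded by Ush1c, ties them to the core through the motor Myo7b and the adaptors Anks4b and Calml4. Villin-like protein, encoded by Vill, belongs to the villin and gelsolin superfamily of actin-binding proteins, and its role in the gut is less well known.

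Sequencing used CEL-Seq, a method that captures transcripts at their 3' end, and the libraries held between 73109 reads in mixed WT library A02 and 4733121 in mixed cancer library A04. Levels are given as normalized CPM, in which TMM factors put the libraries on 1 scale, and can be compared for 1 gene across libraries but not between genes. In A02 a gene with 3 reads, the upper 95% limit of a count of 0, stands at 38.4 normalized CPM, against 0.565 in A04. Pooled over both libraries of a group, this floor is 1.01 normalized CPM for pure WT and 0.545 for mixed cancer cells, and higher, at 5.63 and 5.54, for mixed WT and pure cancer cells. Read counts include amplification copies, so floors and intervals cover counting error only. A limit set by 0 reads in pure cancer cells falls 1.57-fold without A03 and 2.77-fold without A07, and one set by mixed cancer cells falls 27.8-fold without A04, the deepest library. Epithelial markers summed to between 4626 and 15690 normalized CPM in every library, and 0 of the 7 tested passed between pure cancer and pure WT cells in edgeR or DESeq2 (1 at an unadjusted p under 0.05). Between mixed cancer and mixed WT cells 1 of the 7, Krt8, was lower. Of 14 markers of immune, stromal, endothelial, muscle and glial cells, 4 were listed in the table, and their sum lay between 0 and 7.04 normalized CPM. Of the secretory lineage markers, 6 of 8 tested genes were lower and 1 was higher in cancer cells in each comparison with WT cells. The 6 lower genes had enough reads to be tested only through WT libraries. This count therefore leans toward lower levels in cancer cells. Of all tested genes, 4.84% were lower in the pure and 4.41% in the mixed comparison. Of the engineered genes, Trp53 was lower in pure cancer than in pure WT cells, with a log2 fold change of -2.56 (SE 0.77, edgeR adjusted p = 0.0323), and Apc had too few reads to be tested, but reads at the 3' end do not check a recombined exon or a point mutation. These are bulk samples, so fewer cells of a type and less RNA per cell cannot be told apart.

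All 10 genes had enough reads to be tested with edgeR's quasi-likelihood test across 5264 genes. Myo1a, Cdhr2, Cdhr5 and Ush1c owed this only to WT libraries, where they are high. The same held for Baiap2l2 and Cdx1, named below. Espn had enough reads only through cancer libraries A03 and A04, and Eps8 only through mixed cancer libraries A04 and A08. Pure cancer and pure WT cells differed in 5 of the 10 genes at an adjusted p under 0.05. Vill and Ezr were higher in pure cancer cells, as were 5.11% of all tested genes, and Myo1a, Ush1c and Cdhr5 were lower, as were 4.84%. Mixed cancer cells were lower than mixed WT cells in Myo1a, Ush1c, Cdhr5 and Cdhr2, against 4.41% of all genes lower, and higher in 0 of 10, against 2.01%. Only 1 gene, Vill, differed between mixed and pure WT cells, where it was higher (0.646% of all genes were higher and 0.741% differed in either direction). Between mixed and pure cancer cells 0 of 10 passed, against 0.0% of all genes. The plot of levels by library shows the genes in the order of their roles.

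**Figure D1:**
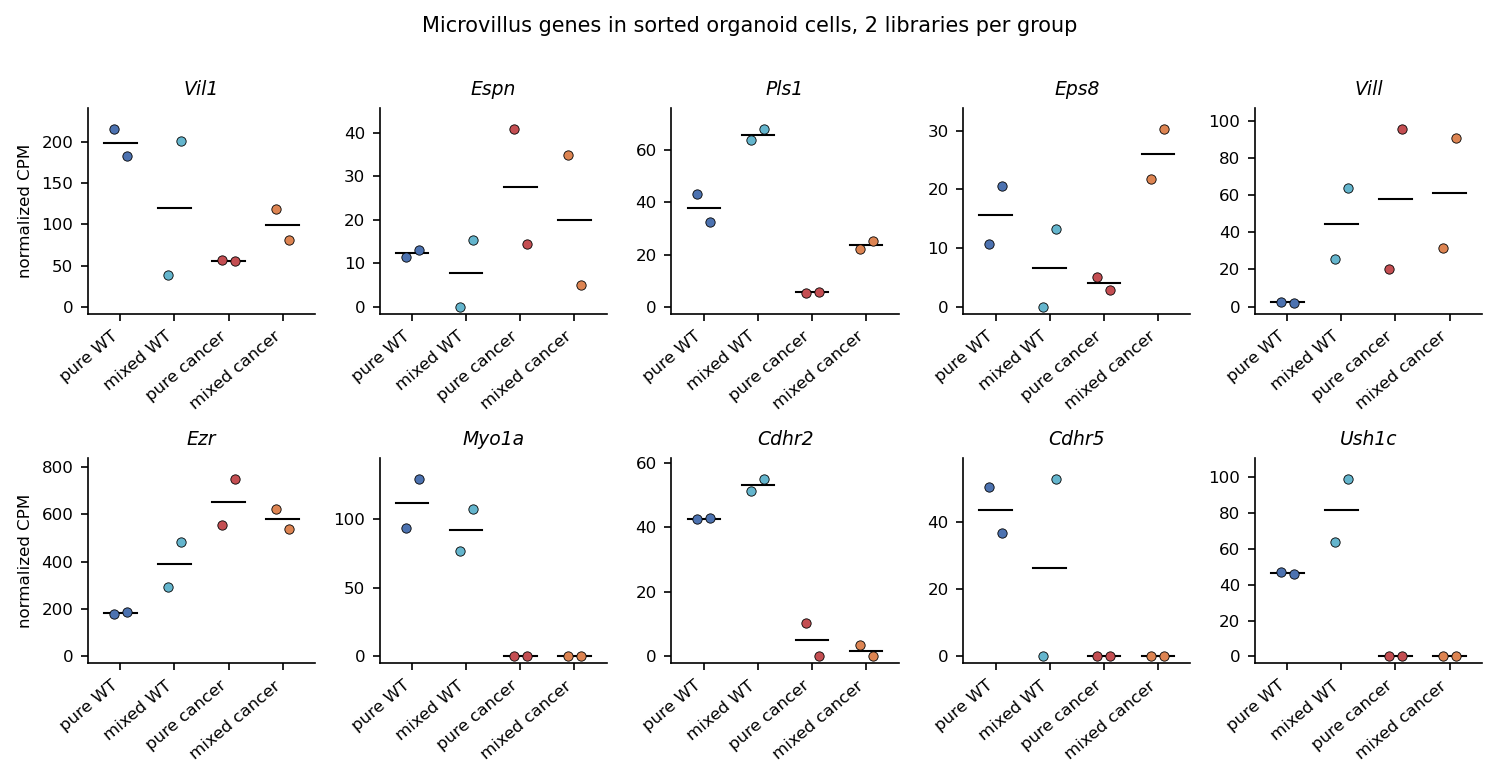
Normalized CPM (y axis, from 0, a separate scale for each gene) of the 10 genes in the 4 groups (x axis); each dot is 1 library and each line the mean of the 2 libraries of a group. Myo1a and Cdhr5 lie at 0 in all 4 cancer libraries, whereas Vill lies at 2.65 and 2.17 in pure WT libraries and at 20.4 or above in the other 6 libraries.

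Promoter windows of the genes that passed a test were read from RefSeq (GRCm38.p6), 250 bases before to 50 bases after the transcription start. RefSeq promoters were available for 9 of the 10 genes, 11 windows in all, and are not shown for Eps8. The first 4 belong to genes that were lower in cancer cells and the last 2 to genes that were higher. They lie at chr10:127705006-127705305 (plus strand, Myo1a), chr7:46238441-46238740 (minus, Ush1c), chr7:141276737-141277036 (minus, Cdhr5), chr13:54701213-54701512 (plus, Cdhr2), chr9:119052528-119052827 (plus, Vill) and chr17:6782731-6783030 (minus, Ezr). Each is printed 5' to 3' on the strand of its gene, and capitals mark a match to a searched motif on either strand.
Myo1a: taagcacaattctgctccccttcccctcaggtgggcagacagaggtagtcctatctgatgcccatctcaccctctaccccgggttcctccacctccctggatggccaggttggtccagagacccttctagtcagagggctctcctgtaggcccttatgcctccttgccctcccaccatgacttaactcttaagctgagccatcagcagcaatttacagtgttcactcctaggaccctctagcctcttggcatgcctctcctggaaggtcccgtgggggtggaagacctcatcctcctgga
Ush1c: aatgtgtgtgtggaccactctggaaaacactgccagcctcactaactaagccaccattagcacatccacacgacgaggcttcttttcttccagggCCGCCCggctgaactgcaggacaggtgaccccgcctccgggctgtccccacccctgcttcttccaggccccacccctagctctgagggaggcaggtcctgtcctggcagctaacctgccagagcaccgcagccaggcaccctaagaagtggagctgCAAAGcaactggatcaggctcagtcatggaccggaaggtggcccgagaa
Cdhr5: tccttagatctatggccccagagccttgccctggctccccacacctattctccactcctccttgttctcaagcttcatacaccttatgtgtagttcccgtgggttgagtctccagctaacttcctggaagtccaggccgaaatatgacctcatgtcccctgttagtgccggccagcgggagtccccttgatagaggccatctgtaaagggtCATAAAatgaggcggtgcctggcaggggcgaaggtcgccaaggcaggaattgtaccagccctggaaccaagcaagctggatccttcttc
Cdhr2: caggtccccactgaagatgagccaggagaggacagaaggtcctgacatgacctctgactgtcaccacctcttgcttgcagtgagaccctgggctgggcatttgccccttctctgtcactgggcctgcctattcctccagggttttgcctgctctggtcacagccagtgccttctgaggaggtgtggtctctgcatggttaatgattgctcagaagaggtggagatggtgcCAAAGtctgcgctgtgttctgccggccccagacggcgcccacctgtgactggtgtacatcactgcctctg
Vill: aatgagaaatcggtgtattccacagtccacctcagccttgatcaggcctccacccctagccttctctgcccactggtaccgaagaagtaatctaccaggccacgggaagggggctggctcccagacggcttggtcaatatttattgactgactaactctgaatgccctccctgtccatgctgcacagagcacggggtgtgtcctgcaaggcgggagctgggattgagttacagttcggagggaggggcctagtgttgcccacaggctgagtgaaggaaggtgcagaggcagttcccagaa
Ezr: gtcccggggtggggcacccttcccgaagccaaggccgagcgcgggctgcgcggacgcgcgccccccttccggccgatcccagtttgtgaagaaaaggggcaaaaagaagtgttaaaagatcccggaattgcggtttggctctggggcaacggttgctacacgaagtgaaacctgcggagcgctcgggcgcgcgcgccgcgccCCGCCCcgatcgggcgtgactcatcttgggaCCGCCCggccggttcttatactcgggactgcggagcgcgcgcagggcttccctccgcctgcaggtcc
In all, 5 motifs of intestinal and general promoter factors were searched on both strands. The full HNF4 motif CAAAGTCCA was in 0 of 9 genes and in 0.475% of the 32851 promoters of the table. Its core CAAAG, which any full match contains, was in 5 of 9 genes (Vil1, Espn, Pls1, Ush1c and Cdhr2). By window this was 5 of 11, against 53.9% of all promoters. The CDX motif CATAAA was found for Cdhr5 and Espn, in 2 of 11 windows, and in 11.9% of promoters. The GATA motif AGATAA was found for none of the 9 and in 11.2% of promoters. The KLF and SP motif GGGCGG was found for Vil1, Espn, Ush1c and Ezr, in 5 of 11 windows, and in 35.7% of promoters. The Myo1a and Vill windows held none of these letters. A match describes the sequence only and is not evidence of binding.

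Villin, encoded by Vil1 (chr1:74409376-74435559, plus strand), severs, caps and bundles actin and is the classic marker of the brush border. Vil1 had 216 and 183 normalized CPM in pure WT libraries A01 and A05, and 38.4 and 202 in mixed WT libraries A02 and A06. It had 56.2 and 55.0 in pure cancer libraries A03 and A07, and 118 and 80.7 in mixed cancer libraries A04 and A08. Both pure cancer libraries thus lay below both pure WT libraries, while the mixed WT libraries lay far apart, 1 below all other libraries with only 3 reads in A02 and 1 within the range of pure WT. Pooled over libraries, Vil1 was 3.53 times higher in pure WT than in pure cancer cells (95% counting interval 2.44 to 5.27). Its log2 fold change of -1.85 (SE 0.61) narrowly missed the threshold in edgeR's test (adjusted p = 0.0560). It passed under 9 of 15 alternative settings, with adjusted p between 0.0126 and 0.198, among them the count of different molecule barcodes in place of reads (0.0204) and the fit without mixed WT library A02 (0.0126). Between the mixed groups the difference was -0.42 (SE 0.58, edgeR adjusted p = 0.815), and it turned to 1.49 without mixed WT library A06. Reads of Vil1 and of Usp37, a gene on the opposite strand that overlaps its 3' end, can be told apart only if counting used strand, which is not stated.

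Espn, Pls1 and Eps8 complete the actin core, and none of them passed a test. Espin, encoded by Espn (chr4:152120331-152152371, minus strand), cross-links the filaments and lengthens microvilli. It varied widely within groups, with 11.5 and 13.0 normalized CPM in pure WT libraries, 0 and 15.4 in mixed WT libraries, 40.9 and 14.5 in pure cancer libraries and 35.0 and 5.05 in mixed cancer libraries. The cancer libraries spanned the WT ones, and the smallest of the 4 adjusted p-values of Espn was 0.597 (edgeR).

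Plastin 1, encoded by Pls1 (chr9:95752642-95845311, minus strand), is the fimbrin that bundles microvillar actin. Pls1 had 43.4 and 32.5 normalized CPM in pure WT libraries, 64 and 68.1 in mixed WT libraries, 5.11 and 5.79 in pure cancer libraries and 22 and 25.2 in mixed cancer libraries. No groups overlapped, with mixed WT highest, then pure WT, mixed cancer and pure cancer. None of the 4 comparisons passed in edgeR's test, the nearest being pure cancer against pure WT cells with a log2 fold change of -2.76 (SE 0.97, adjusted p = 0.0759) on 3 pure cancer reads. That comparison passed in 1 of 14 alternatives, without mixed WT library A02 (adjusted p = 0.0450).

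Eps8 (chr6:137477245-137654876, minus strand) is the tip protein that caps and bundles actin. It had 10.6 and 20.6 normalized CPM in pure WT libraries, 0 and 13.2 in mixed WT libraries, 5.11 and 2.89 in pure cancer libraries and 21.8 and 30.3 in mixed cancer libraries. Both mixed cancer libraries lay above all others, and they alone gave Eps8 enough reads to be tested. Its comparisons therefore lean toward higher levels in mixed cancer cells. The pure cancer values rested on 2 reads in all. Pooled, the level in mixed cancer cells was 5.99 times that in pure cancer cells, with a counting interval of 1.62 to 50.0. The fitted difference of 2.70 (SE 1.29) had an adjusted p of 1.00 in edgeR. The 7 tested genes for actin bundling and elongation in protrusions include Espn, Pls1 and Eps8. Of these 7, 1 was lower in pure cancer cells, against 4.84% of all tested genes. This was Baiap2l2, named after its values were seen. It was at least 16.0-fold lower there (edgeR adjusted p = 0.00272). Between the mixed groups 0 of the 7 passed in edgeR or DESeq2, with 1 at an unadjusted p under 0.05.

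Vill (chr9:119052778-119071525, plus strand) was the gene that differed most in the upward direction. Pure WT libraries A01 and A05 had 3 and 4 reads, or 2.65 and 2.17 normalized CPM. Mixed WT libraries A02 and A06 had 2 and 29 reads, or 25.6 and 63.7 normalized CPM. Pure cancer libraries had 20.4 and 95.5 normalized CPM in A03 and A07, and mixed cancer libraries 31.4 and 90.8 in A04 and A08. Every library outside pure WT was therefore above both pure WT libraries, and the other 3 groups overlapped each other.

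Pooled over libraries, Vill was 24.7 times higher in mixed than in pure WT cells (95% counting interval 10.7 to 66.5) and 29.1 times higher in pure cancer than in pure WT cells (12.8 to 77.3). These ratios were 10.9 without A06 and 8.70 without A07. The log2 fold changes were 4.35 (SE 0.97, edgeR adjusted p = 0.0294) and 4.61 (SE 0.95, adjusted p = 0.00195). These comparisons share the pure WT libraries and their 7 reads, so they are not independent of each other. In barcodes the mixed WT reads were 1 and 13 different molecules, and the change with mixing had an adjusted p of 0.0125 on barcode counts and 0.00476 in DESeq2. The call in WT cells was lost without A01 (adjusted p = 0.0773), A05 (0.318) or A06 (0.386), and the call in cancer cells without A07 (0.229). Mixed cancer and mixed WT cells differed by 0.13 (SE 0.83, adjusted p = 0.970), and mixed and pure cancer cells by -0.13 (SE 0.79, adjusted p = 1.00).

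Whether Vill responded differently to mixing in WT and cancer cells was tested directly. The difference between the 2 changes was 4.48 (SE 1.25), with an adjusted p of 0.309 in edgeR and 0.146 in DESeq2. It passed in 1 of 13 alternatives, without pure cancer library A03 (0.0103). Proliferation markers also separated the WT groups in their sum, which was 1285 and 1322 normalized CPM in pure and 433 and 896 in mixed WT libraries, although 0 of 9 passed in edgeR (3 at an unadjusted p under 0.05) and 0 of the 7 given an adjusted p by DESeq2. Their part in the level of Vill was not tested. For the difference between the mixing changes 0 of the 10 genes passed in edgeR, against 0.076% of all tested genes, and 0 of the 4 given an adjusted p by DESeq2. In edgeR 1 of 10 had an unadjusted p under 0.05, against 7.28%.

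Within the villin and gelsolin superfamily, 6 of 8 genes were tested, and their plot by library places Vill beside its relatives. Capg, which caps actin filament ends, had 36.3 and 15.7 normalized CPM in pure WT libraries and 141 and 240 in mixed WT libraries. It had 148 and 315 in pure cancer and 199 and 247 in mixed cancer libraries, so that, like Vill, both pure WT libraries were below the other 6. Its log2 fold changes were 2.94 for mixed against pure WT (SE 0.59, edgeR adjusted p = 0.0163) and 3.19 for pure cancer against pure WT cells (SE 0.58, adjusted p = 0.000578). Avil, encoding advillin, a close relative of villin, was higher in pure cancer than in pure WT cells by 4.07 (SE 0.82, adjusted p = 0.00156). Its 2.65 and 5.96 normalized CPM in pure WT compared with 40.9 and 110 in pure cancer libraries, and with 38.4 and 8.79 in mixed WT. Thus 2 of 6 tested family members were higher in mixed WT cells, against 0.646% of all tested genes, and 3 of 6 in pure cancer cells, against 5.11%. None passed as lower, although Vil1 narrowly missed the threshold in pure cancer cells. Vill and Capg are in both counts, and both comparisons share the pure WT libraries. Between the mixed groups 0 of 6 passed in edgeR or DESeq2, with 2 at an unadjusted p under 0.05, and between the cancer groups 0 of 6 at either threshold. The family's median log2 fold change was 1.73 with mixing in WT cells, against -0.10 for all tested genes, and 1.82 in pure cancer cells, against -0.05.

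**Figure D2:**
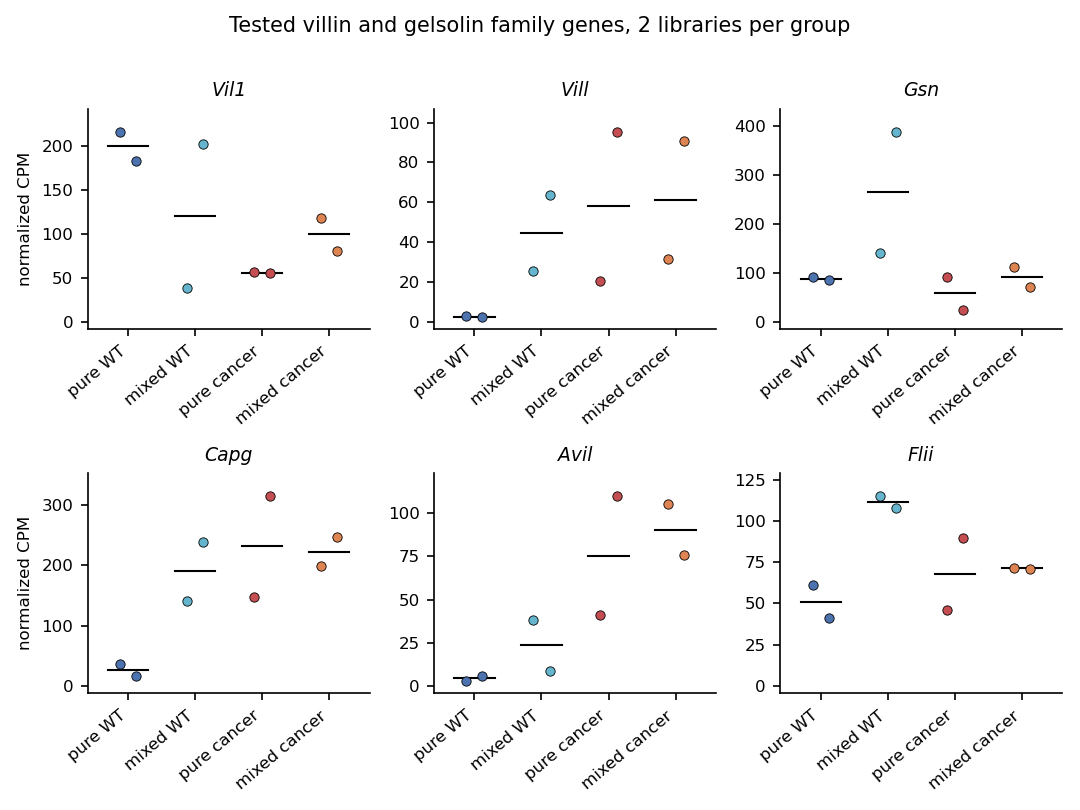
Normalized CPM (y axis, from 0, a separate scale for each gene) of the 6 tested villin and gelsolin family genes in the 4 groups (x axis); each dot is 1 library and each line the group mean. Vill and Capg are lowest in both pure WT libraries, at no more than 2.65 and 36.3, and Vil1 is highest in pure WT library A01, at 216.

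Ezrin, encoded by Ezr (chr17:6738041-6782784, minus strand), links the plasma membrane to cortical actin when phosphorylated, and it is the most deeply counted of the genes. Ezr had 180 and 188 normalized CPM in pure WT libraries, 294 and 483 in mixed WT libraries, 557 and 749 in pure cancer libraries and 622 and 540 in mixed cancer libraries. Pure WT was lowest, mixed WT came next, and both cancer groups were above all WT libraries and overlapped each other. Group means were 184 ± 5.81 and 389 ± 134 in pure and mixed WT cells, and 653 ± 136 and 581 ± 58.4 in pure and mixed cancer cells (SD, n = 2). The log2 fold change of pure cancer against pure WT cells was 1.83 (SE 0.44, edgeR adjusted p = 0.00819). This call was lost on barcode counts (0.0812) and without A01 (0.104), A05 (0.0585) or A07 (0.0877). It held in DESeq2 (0.000440). Mixed WT exceeded pure WT cells by 1.11 (SE 0.44, adjusted p = 0.372), and mixed cancer exceeded mixed WT cells by 0.56 (SE 0.44, adjusted p = 0.605), which turned to -0.10 on barcode counts. Sytl3 lies on the opposite strand over the 3' end of Ezr, with the same limit on counting as for Vil1.

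Of the ERM proteins and their partners, 4 of 9 were tested. Ezr and Msn, or 2 of the 4, were higher in pure cancer cells, against 5.11% of all tested genes. Msn had enough reads to be tested only through cancer libraries. Msn encodes moesin, the ERM protein typical of cells other than enterocytes. It had 1.77 and 0.541 normalized CPM in pure WT libraries and 0 and 2.20 in mixed WT libraries, against 76.7 and 168 in pure cancer and 89.6 and 116 in mixed cancer libraries. Msn was higher in cancer cells by 6.76 (SE 0.90, edgeR adjusted p = 1.66e-05) in the pure groups and 5.70 (SE 1.15, adjusted p = 0.00189) in the mixed groups. In mixed WT cells Msn rested on 1 read in all, with a pooled level of 1.88 normalized CPM, below the floor of 5.63.

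Myosin 1a, encoded by Myo1a (chr10:127705170-127720940, plus strand), tethers the membrane to the actin core. Pure WT libraries held 106 and 239 reads of Myo1a and mixed WT libraries 6 and 49, but there were 0 reads in each of the 4 cancer libraries. In normalized CPM these were 93.8 and 129, and 76.8 and 108. The WT groups overlapped each other and neither overlapped the cancer groups. Against the floor pooled over the cancer libraries of a group, Myo1a was at least 20.9-fold lower in pure cancer than in pure WT cells and at least 189-fold lower in mixed cancer than in mixed WT cells. Allowing also for counting error in WT cells, the limits were 16.9 and 149. The first limit, without that allowance, was 13.3 without A03 and 7.56 without A07, and the second was 6.82 without A04. Both calls (edgeR adjusted p = 0.000289 and 1.78e-05) held under all 14 alternatives run for each, with adjusted p of at most 0.00284 and 0.0271. Of the 12 tested myosin and calmodulin genes of the microvillus and terminal web, 2 were lower in either comparison, Myo1a and Myo7b, and 0 were higher. Among all tested genes, 4.84% were lower in the pure and 4.41% in the mixed groups.

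Harmonin, encoded by Ush1c (chr7:46195350-46238503, minus strand), is the scaffold of the intermicrovillar adhesion complex. Ush1c had 46.9 and 46.0 normalized CPM in pure WT libraries and 64 and 98.9 in mixed WT libraries. It had 0 reads in pure cancer libraries A03 and A07 and in mixed cancer library A08, and 1 read among 4733121 in A04. All WT libraries were above all cancer libraries. Ush1c was at least 8.36-fold lower in pure cancer than in pure WT cells, or 6.71-fold with counting error in WT cells (edgeR adjusted p = 0.00428). In the mixed groups WT cells were 517 times higher (95% counting interval 88.6 to 20810, adjusted p = 8.63e-05). Without A04 they were at least 6.20 times higher, and without A03 or A07 the limit in the pure groups was 5.34 or 3.02. The call in the pure groups was lost without A07 (adjusted p = 0.0571), and the call in the mixed groups held in all 14 alternatives, with adjusted p of at most 0.0436. Mixed exceeded pure WT cells by 0.86 (SE 0.73, adjusted p = 0.780).

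Cdhr2 (chr13:54701461-54736662, plus strand) is the longer protocadherin of the tip links. It had 42.5 and 42.8 normalized CPM in pure WT libraries and 51.2 and 54.9 in mixed WT libraries. The cancer libraries had 10.2 and 0 in the pure and 3.58 and 0 in the mixed group, from 2 reads in A03 and 19 in A04. WT libraries did not overlap cancer libraries in either comparison. The log2 fold change of mixed cancer against mixed WT cells was -4.05 (SE 1.02, edgeR adjusted p = 0.0146), and the pooled level was 15.8 times higher in mixed WT cells, or at least 3.59 times without A04. The call was lost without A04 (0.133), A05 (0.0541) or A06 (0.121). In the pure groups the fold change of -3.41 (SE 1.16, adjusted p = 0.0655) missed the threshold, and it passed in 5 of 14 alternatives, including barcode counts (0.00230) but not DESeq2 (0.154).

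Cdhr5 (chr7:141269083-141276786, minus strand), the partner of Cdhr2 in the tip links, had 50.4 and 36.8 normalized CPM in pure WT libraries and 0 and 52.7 in mixed WT libraries. It had 0 reads in each of the 4 cancer libraries. The 0 of mixed WT library A02 equals the cancer values, so the mixed groups overlap. With 3 reads standing at 38.4 in A02, its 0 cannot be told from the 36.8 of pure WT library A05. Cdhr5 was at least 7.57-fold lower in pure cancer than in pure WT cells (edgeR adjusted p = 0.0172) and at least 82.7-fold lower in mixed cancer than in mixed WT cells (adjusted p = 0.00164). The first limit was 4.84 without A03 and 2.74 without A07, the second was 2.97 without A04, and no fold can be given in the mixed groups without A06. DESeq2 made neither call (adjusted p = 0.670 and 0.675). The first was also lost without A01 (0.0878), A05 (0.0666) or A07 (0.0825), and the second without A04 (0.253) or A06 (1.00).

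The plot of changes sets the 4 comparisons side by side. Each library enters more than 1 of them, so the panels are not independent.

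**Figure D3:**
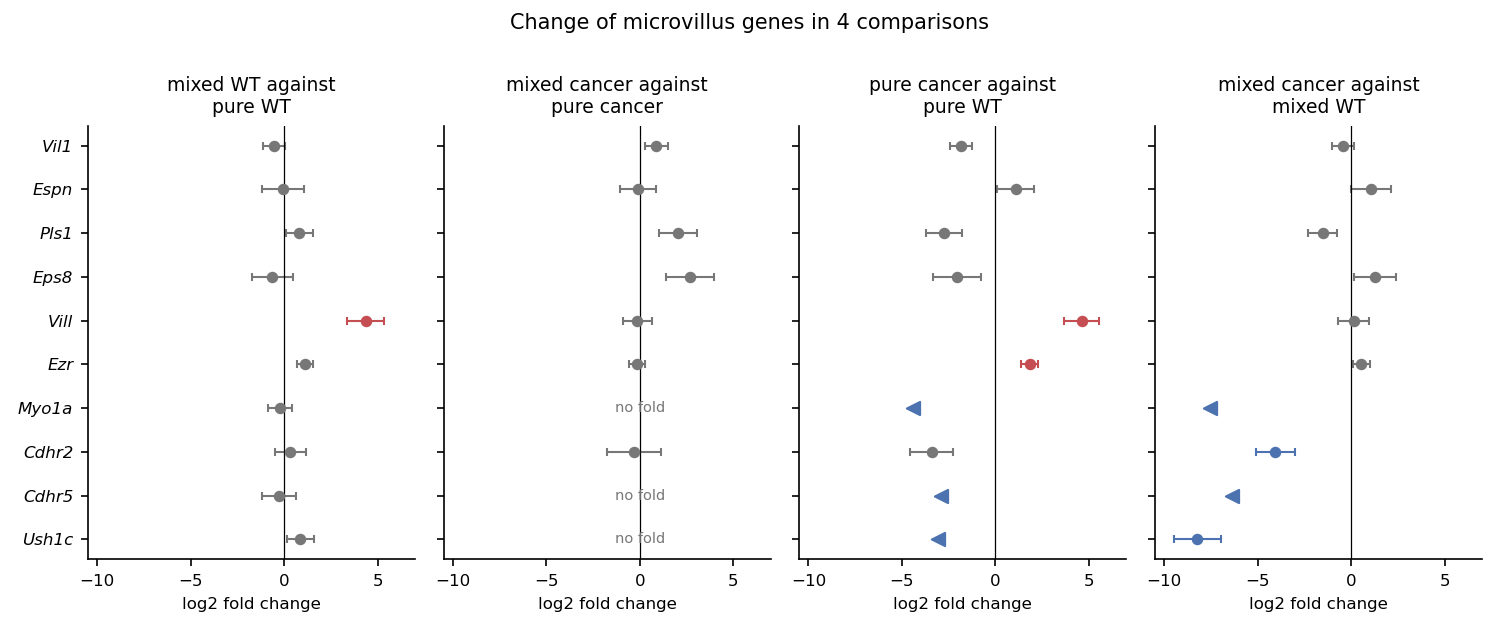
Log2 fold change (x axis) of the 10 genes (y axis) in 4 comparisons; dots are edgeR's fitted changes with bars of 1 SE, and triangles stand at the smallest fold that 0 reads allow, pooled over the group. Triangles leave out counting error in WT cells and spread between libraries, so they are not firm limits. Red marks genes higher and blue genes lower at an adjusted p under 0.05, such as Vill at 4.35 in mixed against pure WT cells, and no gene is colored between mixed and pure cancer cells.

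Between mixed and pure cancer cells 0 of 10 genes passed in edgeR and 0 in DESeq2, and 1 of 10 had an unadjusted p under 0.05, against 1.31% of all tested genes. The most separated were Eps8, given above, and Pls1, which was higher in both mixed cancer libraries by 2.05 (SE 1.01, edgeR adjusted p = 1.00). Vil1 was also higher in both, by 0.89 (SE 0.62, adjusted p = 1.00), with a pooled ratio of 2.11 and a counting interval of 1.46 to 3.15. Myo1a and Cdhr5 had no reads in either cancer group, and Ush1c only 1, so no fold can be given. Among mixed and pure WT cells, 2 of 10 genes had an unadjusted p under 0.05, Vill and Ezr, against 9.67% of all genes.

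The adhesion complex as a whole has 6 genes, all tested, 3 of them members of the present set. In pure cancer cells 3 of 6 were lower than in pure WT cells (Cdhr5, Ush1c and Myo7b), against 4.84% of all tested genes. In mixed cancer cells 5 of 6 were lower than in mixed WT cells (all but Anks4b), against 4.41%, with 0 higher. All but Calml4 entered the test only through WT libraries, so these counts and the median below lean toward lower levels in cancer cells. Myo7b, the motor of the complex, had 98.2 and 109 normalized CPM in pure WT libraries and 76.8 and 182 in mixed WT libraries, 0 in both pure cancer libraries and 1 read in mixed cancer library A04. Its fold was at least 19.0 lower in pure cancer cells (edgeR adjusted p = 0.000279). Calml4, a light chain of this motor, was still detected in cancer cells, at 56.2 and 162 normalized CPM in pure and 30.9 and 80.7 in mixed libraries, against 215 and 327 in pure WT libraries and 307 and 448 in mixed WT libraries. Its log2 fold change was -2.98 (SE 0.61, adjusted p = 0.00246) in the mixed and -1.27 (SE 0.56, adjusted p = 0.185) in the pure groups. With genes at 0 reads set to their limits, the median log2 fold change of the complex was -2.99 in the pure and -5.21 in the mixed groups, against -0.05 and 0.12 for all tested genes.

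Other parts of the brush border were read from lists written with earlier results known. Of 19 enzymes, transporters and glycocalyx genes, 5 were tested, and 4 of these were lower in cancer cells in both comparisons. Of all tested genes, 4.84% were lower in the pure and 4.41% in the mixed groups. All 5 entered the test only through WT libraries, so this count does not describe the whole list. Alpi, the alkaline phosphatase of the brush border, had 435 and 362 normalized CPM in pure WT libraries and 781 and 890 in mixed WT libraries, against 10.2 and 2.89 in pure and 1.88 and 0 in mixed cancer libraries. Its log2 fold changes were -6.11 (SE 0.70, edgeR adjusted p = 2.70e-06) in the pure and -8.80 (SE 0.72, adjusted p = 1.23e-08) in the mixed groups. The other 3 were named after their values were seen. They are the protease Mep1b, the glucose transporter Slc5a1 and the mucin Muc13, at 0 reads in both pure cancer libraries and at least 5.94-fold, 10.8-fold and 10.0-fold lower there than in pure WT cells. Of 11 genes of the terminal web, actin and keratins, 0 passed between the pure groups in edgeR or DESeq2 (2 at an unadjusted p under 0.05), with a median log2 fold change of -0.17. In the mixed groups 2 of these 11 were lower, against 4.41% of all tested genes, among them Krt8 at -1.83 (SE 0.44, edgeR adjusted p = 0.00978). Among 8 apical trafficking genes, 2 were higher in pure cancer cells, against 5.11% of all tested genes. These were the GTPase Rab11a, by 1.58 (SE 0.50, edgeR adjusted p = 0.0465), and the syntaxin-binding protein Stxbp2, by 1.83 (SE 0.52, adjusted p = 0.0250). In the mixed groups 0 of 8 passed in edgeR, with or without adjustment, or in DESeq2.

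Intestinal transcription factors moved in the same 2 comparisons, and their part in the levels of the microvillus genes was not tested. Of 9 tested factors, 3 were lower between the pure groups and 4 between the mixed groups, with 0 higher. Lower calls took in 4.84% and 4.41% of all tested genes. Hnf4a, which drives enterocyte genes, had 311 and 319 normalized CPM in pure WT libraries and 358 and 622 in mixed WT libraries, but 46.0 and 34.7 in pure and 32.8 and 5.05 in mixed cancer libraries. Its log2 fold change was -2.99 (SE 0.60, edgeR adjusted p = 0.00146) in the pure and -4.31 (SE 0.60, adjusted p = 3.10e-05) in the mixed groups. Cdx1, a homeobox factor of the intestine, had 267 and 258 normalized CPM in pure WT libraries and 0 reads in both pure cancer libraries, at least 47.2-fold lower (adjusted p = 3.79e-05). With mixing, 0 of these 9 factors passed in edgeR in either kind of cell, with 2 at an unadjusted p under 0.05 in WT and 0 in cancer cells. DESeq2 called 0 of the 6 it gave an adjusted p in WT and 0 of 9 in cancer cells.

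**Figure D4:**
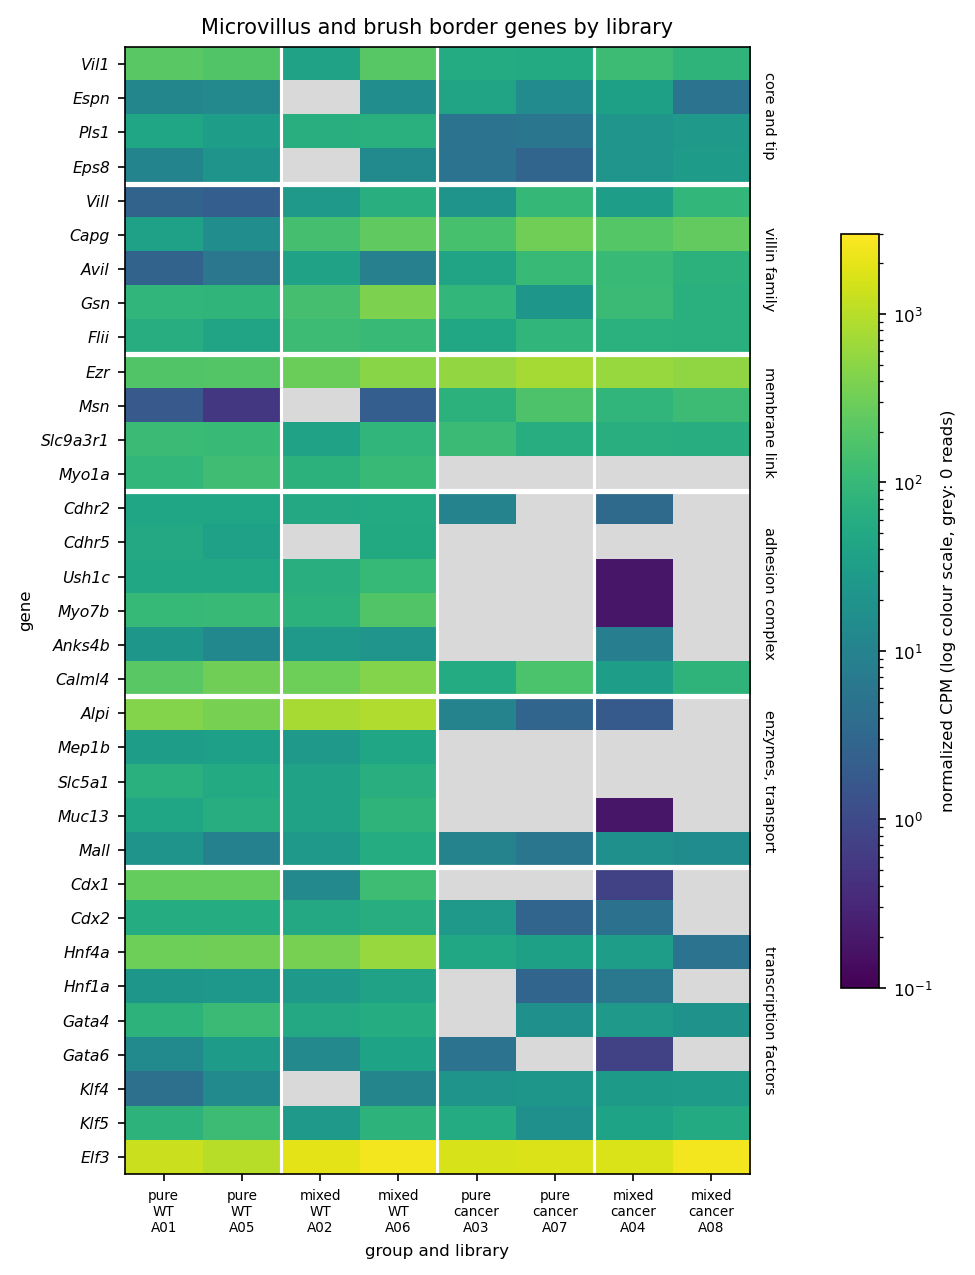
Normalized CPM (color, log scale) of microvillus, villin family, brush border and transcription factor genes (y axis, grouped by role) in the 8 libraries (x axis), with grey for 0 reads; colors compare libraries within a gene, not genes. Myo1a, Cdhr5, Mep1b and Slc5a1 are grey in all 4 cancer libraries, Calml4 is not, and Vill is darkest in pure WT libraries, at 2.65 and 2.17.

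The genes whose pattern over the 8 libraries was most like that of Vil1 were Cisd3 (Pearson r = 0.96), Ifrd2 (0.96), Cuta (0.95), l7Rn6 (0.95) and Sema4a (0.94), out of 2742 genes with at least 50 reads on average. For the mean standardized profile of the 10 members they were Tspan15 (0.96), Mrpl15 (0.96), Fkbp1a (0.95), Gss (0.91) and Pgm1 (0.89). Among the members, Myo1a followed Ush1c (r = 0.99) and Cdhr2 followed Ush1c (0.91), while Ezr followed Vill (0.88) and ran opposite to Myo1a (-0.82). These are descriptions over 8 libraries that share their groups and differ 64.7-fold in depth. Summed over the 10 members, levels lay between 614 and 1160 normalized CPM in every library. This sum hides opposite changes and does not show that the members kept their levels. In cancer libraries, where it lay between 695 and 923, Ezr alone had between 540 and 749. Myo1a, Cdhr2, Cdhr5 and Ush1c together summed to between 192 and 314 in WT libraries and between 0 and 10.2 in cancer libraries.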

How the data were processed

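Bulk RNA was sequenced with CEL-Seq from 8 libraries, 2 in each of 4 groups. In the authors' pipeline, library and sample were told apart by read 1, and gene counts came from read 2, mapped by BWA against RefSeq transcripts of mm10 and tallied by featureCounts after ambiguous alignments were dropped. The authors deposited read counts, counts of different molecule barcodes, and expected counts of transcripts estimated from the barcodes, none normalized. They also deposited a DESeq2 table (version 1.22.2) of mixed against pure WT cells, with mean signal, log2 fold change and standard error, test score and p-value columns, which was not used here.

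The 10 members and the 15 gene lists were chosen with earlier results of these data known. Groups came from the labels, with the code in each title as replicate name. An engineered allele of the cancer cells is not reported here. Read counts of 13420 genes (2 entries that are not mouse genes were left out) were compared with edgeR 4.0.16 in R 4.3.3, using filterByExpr with a minimum count of 10, TMM factors and 1 quasi-likelihood fit of all 8 libraries. Genes were called at a Benjamini-Hochberg adjusted p under 0.05 over 5264 genes. The SE was derived from the F statistic, as the absolute log2 change over its square root. Pooled ratios have exact 95% counting intervals. Fits were tested on simulated data. Depth ranged from 73109 to 4733121 reads. No pair of libraries within a group agreed within counting error (chi-square per degree of freedom 4.71 to 9.37).

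Named beyond the members were list genes that passed, at most 4 per list and comparison by size of change, with at least 50 reads on average. Outside this rule, Baiap2l2, Mep1b, Slc5a1 and Muc13 were named after their values were seen, and Trp53 and Apc as engineered genes. Also named were the 5 genes most correlated with Vil1 or with the mean profile (log2 CPM, prior count 2). Gene positions and overlaps came from GENCODE vM21 (GRCm38), where no member shared a 50-base window of its 3' end with another gene. Alternatives were barcode or transcript counts (rounded), median-of-ratios factors, a minimum count of 50 or none, only the 4 libraries compared, DESeq2 1.42.0, each library left out, and a prior count of 10.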

Additional observations from a re-analysis of the deposited data

How the results depend on the processing

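No paired analysis was run, because the groups share no replicate number in the labels. A01 to A04 and A05 to A08 each hold 1 library of every group. A block on these would rest on label order alone and was not run. Mixed WT and mixed cancer libraries were thus treated as independent, although both came from mixed cultures. Of the 140 alternative values of the called changes, 121 kept their direction and call, 19 missed the threshold and 0 reversed. The cause was not tested, except that a minimum count of 50 left only 2 of the 10 genes, Vil1 and Ezr, in the test. With that minimum the number of genes called was 0 for mixed against pure WT, 2 for pure cancer against pure WT and 0 for mixed cancer against mixed WT cells. With 1 library left out at a time, it ranged from 0 to 1 for mixed against pure WT, from 1 (without A07) to 8 (without A02) for pure cancer against pure WT, from 2 to 4 for mixed cancer against mixed WT, and from 0 to 1 for the difference between the mixing changes. It stayed 0 for mixed against pure cancer cells in all 15 alternatives.

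All 17 values that turned direction belong to changes that were not called. With 1 library left out, the log2 change of mixed against pure WT cells ranged from -7.04 to 0.27 for Espn, from -8.85 to 0.23 for Cdhr5 and from -0.65 to 0.037 for Myo1a. For mixed against pure cancer cells it ranged from -0.88 to 1.47 for Vill, from -0.36 to 0.14 for Ezr, from -2.32 to 0.82 for Espn and from -4.29 to 5.12 for Cdhr2. For mixed cancer against mixed WT cells it ranged from -0.97 to 1.49 for Vil1, from -0.63 to 1.18 for Vill and from -1.16 to 7.99 for Espn. On barcode counts Cdhr2 was 1.36 in mixed against pure cancer cells (0.83 on transcript counts) and Ezr was -0.10 in mixed cancer against mixed WT cells. A prior count of 10 in place of 2 moved 40 of 80 log2 CPM values of single libraries by more than the spread within their group. Mixed WT and pure cancer cells have the least depth, and Espn, Eps8 and Vill rest on few reads there.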
